A study of Homo sapiens with 9 samples.

Results

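Keratins were examined in OVCA433, an established human line of ovarian serous adenocarcinoma cells, after knockdown of MPZL3, an immunoglobulin domain protein of the cell surface. The members were all protein-coding rows of the count table whose symbol is KRT, a number and at most 1 letter, so keratin-associated proteins were left out. This gave 55 keratin genes of 58676 genes listed, 29 of type I and 26 of type II. A keratin was described in full when at least 3 of the 9 libraries held at least 10 counts of it, and 14 did. The study asked what loss of MPZL3 does to ovarian cancer cells and compared 3 groups of 3 biological replicates, sequenced as libraries lettered A, B and C in each group: OVCA433 transduced with a control vector, OVCA433 with MPZL3 shRNA#1 and OVCA433 with MPZL3 shRNA#3. Their genotype is labelled WT in control and MPZL3 knock-down with either hairpin. All 3 groups were lentivirally transduced cells selected with puromycin and grown in the same medium with serum, and the labels give no dose or time. The control is called an empty vector in one place of the study's methods and a scrambled hairpin in another, so whether it expresses a hairpin is uncertain. Both hairpins were selected cell populations of 1 line, so the data describe OVCA433 and no other cells.

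Keratins are the intermediate filament proteins of epithelial cells. They form filaments only as heterodimers of 1 acidic type I chain and 1 basic or neutral type II chain, so the chains are made in matched pairs, and a chain without its partner is usually degraded. Simple, single-layered epithelia make KRT8 with KRT18, often joined by KRT7 and KRT19. Basal cells of layered epithelia make KRT5 with KRT14 and KRT15, suprabasal cells of the skin make KRT1 with KRT10, and stressed or wounded epithelia add KRT6 with KRT16 and KRT17. Hair keratins, which are rich in cysteine, include KRT34 among type I and KRT81 and KRT86 among type II. Ovarian carcinomas are typically KRT7-positive, and keratins give way to vimentin during epithelial to mesenchymal transition (EMT). Nearly all type I genes lie in 1 cluster on chromosome 17 and all type II genes in 1 cluster on chromosome 12, where KRT18, a type I gene, sits beside KRT8.

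The libraries held between 16850854 and 23890191 counts. Gene positions are those of the count table on hg38 (GRCh38). Levels below are CPM, counts per 1000000 library counts after scaling with TMM factors, given as mean ± SD of the 3 libraries of a group. MPZL3 itself was at 15.6 to 21.9 CPM in control, 1.80 to 1.98 with shRNA#1 and 0.988 to 1.94 with shRNA#3, and its pooled change was −3.49 on the log2 scale (SE 0.191, adjusted p = 6.87e-08, edgeR). Of 7 markers of epithelial ovarian carcinoma, CDH1, EPCAM, CLDN3, CLDN4 and MUC16 were called lower after knockdown, PAX8 was called higher, and WT1 was at 0 in all libraries. Their summed level was 1268 to 1392 CPM in control, 199.9 to 226.8 with shRNA#1 and 207.8 to 248.6 with shRNA#3, and most of it after knockdown was PAX8. Without PAX8 the sum was 1153 to 1298 CPM in control, 9.39 to 13.04 with shRNA#1 and 18.8 to 19.2 with shRNA#3. CDH1, at most 0.353 CPM after knockdown, and MUC16, at 0, could pass the filter on low counts only through control and be called only lower. Of all tested genes, 7.4% were called lower and 7.26% higher in the pooled comparison. The 7 fibroblast markers summed to 18.7 to 22.1 CPM in control, 108.5 to 444.1 with shRNA#1 and 501.8 to 870.2 with shRNA#3, most of it COL1A1. All 4 fibroblast markers tested, COL1A1, PDGFRB, LUM and COL3A1, were called higher in the pooled comparison, and PDGFRB went from 0.287 to 0.846 CPM in control to 8.18 to 18.5 with shRNA#1 and 13.1 to 19.9 with shRNA#3. COL3A1, at most 0.0484 CPM in control, could pass the filter only through knockdown libraries and be called only higher. PDGFRB was likewise too low in control to pass the filter without the knockdown libraries. The count of fibroblast markers called higher is therefore partly fixed by the filter. DCN was at 0 in all libraries, and THY1 was at most 0.386 CPM. The part of these markers in the keratin results was not tested. The 5 immune markers summed to at most 1.35 CPM in any library, and the 4 endothelial markers, of which KDR and CDH5 were called higher, to at most 1.02 CPM in control and 7.5 CPM after knockdown. KDR and CDH5, at most 0.484 and 0.143 CPM in control, were too low there to pass the filter without the knockdown libraries. The 6 mesothelial markers summed to 124.3 to 158.6 CPM in control, 94.2 to 110.2 with shRNA#1 and 154.8 to 197.5 with shRNA#3, and moved in both directions. UPK3B was called lower, from 46.8 to 69.6 CPM in control to 0.407 to 1.12 CPM in the knockdown libraries. MSLN, at 53.7 to 82.3 CPM in control and 117.6 to 176.7 with shRNA#3, and LRRN4 were called higher with shRNA#3.

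Most genes of the keratin family had few or no counts in these cells. Of the 55 genes, 26 had no count in any of the 9 libraries and 15 more had counts but stayed under the minimum. Among those 15, the highest count in a single library was 22 for KRT13, 12 for KRT83 and 10 for KRT5, the type II chain of basal epithelial cells, and the other 12 never passed 6 counts. The 14 described keratins were 9 of type I (KRT10, KRT14, KRT15, KRT16, KRT17, KRT18, KRT19, KRT23 and KRT34) and 5 of type II (KRT7, KRT8, KRT80, KRT81 and KRT86). The minimum was met in all 9 libraries by 9 of them. KRT14, KRT16 and KRT23 met it in the 3 control libraries and in no knockdown library, so these 3 could enter the described set only through the group where they were high. Together the keratins took 1.29% to 1.63% of all counts in the control libraries, 0.527% to 0.663% with shRNA#1 and 0.531% to 0.578% with shRNA#3. The described keratins held at least 99.99% of that keratin total in every group.

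Several keratins resemble each other closely enough for short reads to be shared, so the closest relatives are described first. KRT81 and KRT86 had 94.2% identical coding bases, with 1 identical run of 605 bases, the highest identity of any pair of the same type among the described keratins. Of all 100-base windows of the KRT81 transcript, 30.3% also occurred in KRT86 or the pseudogene KRT87P, and 26.6% of the KRT86 windows occurred in KRT81 or KRT87P. The counts of these neighbours are therefore uncertain wherever reads fell in the shared stretches.

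KRT14 and KRT16, type I chains of basal and of stressed epithelium, were the next closest pair, with 88.7% identical coding bases. The stretch of 60 coding bases with most differences between them, lying within 1 exon of each gene, tells the pair apart and is given 5′ to 3′ with the 19 differing bases in capitals.
KRT14, exon 5, chr17:41583585-41583644, minus strand, GRCh38: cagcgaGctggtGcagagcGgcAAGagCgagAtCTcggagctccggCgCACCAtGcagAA
KRT16, exon 5, chr17:41610888-41610947, minus strand, GRCh38: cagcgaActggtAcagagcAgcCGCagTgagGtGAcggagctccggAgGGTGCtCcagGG
The share of 100-base windows found in other KRT-named genes was 5.95% for KRT14 and 7.18% for KRT16, and 5.92% for KRT8, whose copies are processed pseudogenes. It was at most 0.848% for each of the other 9 described keratins. Reads carried no strand, and KRT18 and KRT8 overlap, with 16.3% of the exonic bases of KRT18 and 7.63% of those of KRT8 annotated to both. Some of their reads therefore cannot be assigned to one gene.

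Keratins of both types fell after MPZL3 knockdown. With both hairpins pooled, 9 of the 13 keratins that passed the filter on low counts were called lower and 0 were called higher, where a call needs an adjusted p under 0.05 and at least a 2-fold change (edgeR quasi-likelihood test, 6 libraries against 3, adjusted over 15975 genes). Of all tested genes, 7.4% were called lower and 7.26% higher in this comparison. The 13 include KRT16 and KRT23, which met the count minimum in control libraries alone and so could be called only lower. Without them, 7 of 11 tested keratins were called lower, 3 of 6 of type I and 4 of 5 of type II. The median pooled log2 fold change of these 11 was −1.36, against 0.00454 over all tested genes. In RNA from whole cultures, fewer keratin-expressing cells and less keratin mRNA per cell cannot be told apart. The 9 keratins called lower were KRT8, KRT18, KRT19, KRT15, KRT16, KRT23, KRT80, KRT81 and KRT86. KRT7, KRT10, KRT17 and KRT34 were not called, and KRT14 was not tested.

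**Figure D1:**
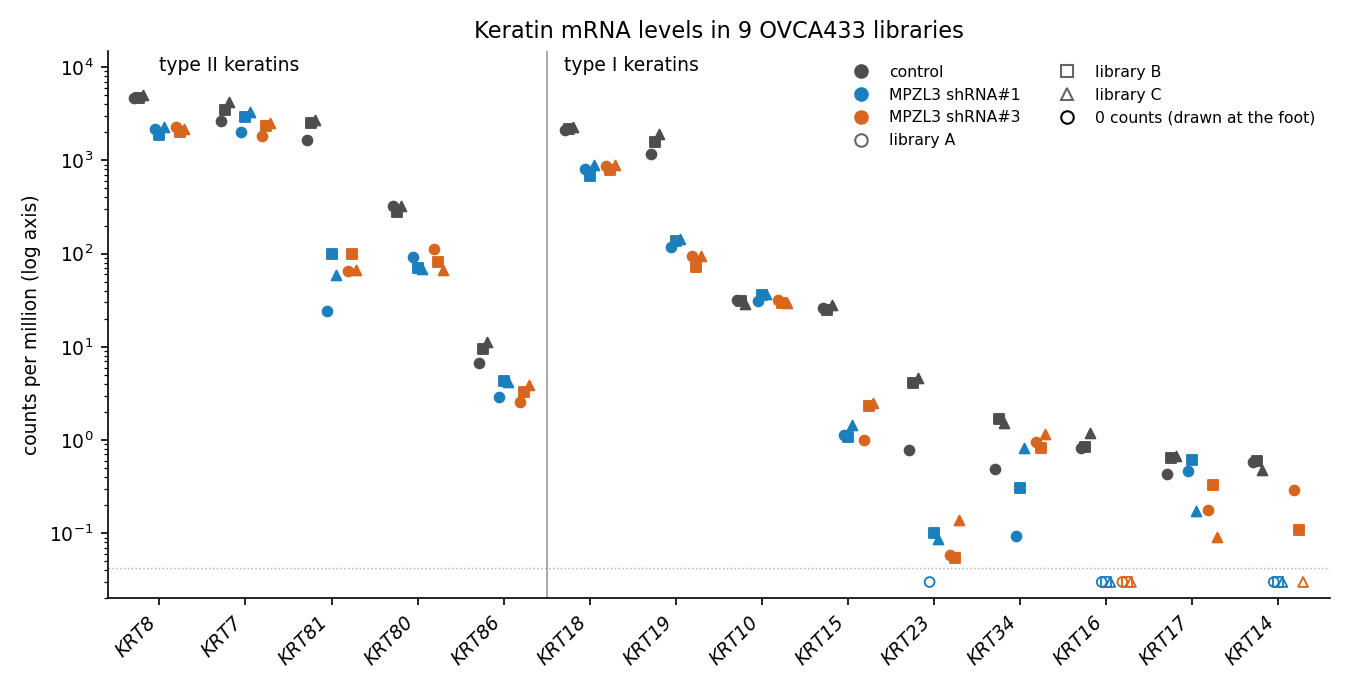
CPM of the 14 described keratins in each of the 9 libraries on a log axis, with colour for the group, marker shape for the library letter and open markers at the foot for 0 counts. The 3 control libraries of KRT81 lie between 1658 and 2724 CPM and its 6 knockdown libraries between 24.1 and 98.3 CPM, while the KRT10 libraries stay between 29.2 and 36.8 CPM.

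The keratins of simple epithelia were all detected in every library. KRT8 (ENSG00000170421, chr12:52897187-52949954, minus strand, type II) was at 4718, 4643 and 5086 CPM in control A, B and C, 2177, 1880 and 2283 CPM with shRNA#1 and 2277, 1999 and 2167 CPM with shRNA#3. All 6 knockdown libraries lay far below the control libraries, and the ranges of the hairpins overlapped. Its pooled change was −1.18 on the log2 scale (SE 0.0904, adjusted p = 1.25e-06).

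KRT18 (ENSG00000111057, chr12:52948871-52952901, plus strand, type I), the usual partner of KRT8, was at 2101, 2158 and 2265 CPM in control. With shRNA#1 it was at 813.3, 685.6 and 885.2 CPM, and with shRNA#3 at 870.5, 782.8 and 883.5 CPM. The control libraries differed little from each other and lay far above all 6 knockdown libraries. The pooled change was −1.41 on the log2 scale (SE 0.0957, adjusted p = 4.32e-07).

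KRT19 (ENSG00000171345, chr17:41523617-41528308, minus strand, type I) encodes the smallest keratin, which lacks the tail domain of the others. It was at 1162, 1569 and 1919 CPM in control, 117.7, 135.1 and 143.4 CPM with shRNA#1 and 94.5, 72.4 and 94.2 CPM with shRNA#3. It kept 8.52% of its control mean with shRNA#1 and 5.62% with shRNA#3, and the libraries of the hairpins did not overlap. Its pooled change was −3.82 on the log2 scale (SE 0.209, adjusted p = 6.56e-08).

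KRT7 (ENSG00000135480, chr12:52232520-52252186, plus strand, type II), the usual keratin of ovarian and other glandular epithelia, was not called in any comparison. It was at 2615, 3441 and 4235 CPM in control, 2007, 2917 and 3305 CPM with shRNA#1 and 1810, 2342 and 2493 CPM with shRNA#3. Library A was the lowest of its group in all 3 groups, and 2 of the shRNA#1 libraries lay within the control range. Among libraries of the same letter, both knockdown libraries lay below the control library for each of the 3 letters. The pooled change was −0.47 on the log2 scale (SE 0.193, adjusted p = 0.0847, edgeR). That adjusted p ranged from 0.03 without shRNA#1 C to 0.368 without control C. With shRNA#3 alone it was −0.63 (SE 0.204, adjusted p = 0.0280), under the 2-fold threshold and with an adjusted p between 0.0077 without control A and 0.134 without control C, and with shRNA#1 it was −0.32 (SE 0.203, adjusted p = 0.238). Of the exonic bases of KRT7, 7.67% are also annotated to KRT7-AS or KRT87P.

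KRT81 and KRT86, the hair keratins with the most similar coding sequences, both fell. KRT81 (ENSG00000205426, chr12:52285913-52291534, minus strand) was at 1658, 2540 and 2724 CPM in control, 24.1, 98.3 and 58.4 CPM with shRNA#1 and 65.4, 98.1 and 66.1 CPM with shRNA#3. It kept 2.61% of its control mean with shRNA#1 and 3.32% with shRNA#3, and no other keratin with over 10 CPM on average kept as little. Its pooled change was −5.08 on the log2 scale (SE 0.345, adjusted p = 4.32e-07).

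KRT86 (ENSG00000170442, chr12:52249300-52309163, plus strand) was at 6.63, 9.46 and 11.2 CPM in control, 2.90, 4.32 and 4.16 CPM with shRNA#1 and 2.59, 3.24 and 3.91 CPM with shRNA#3. The highest knockdown library lay under the lowest control library, and library A was again the lowest in all 3 groups, as it was for KRT81. The pooled change of KRT86 was −1.36 on the log2 scale (SE 0.207, adjusted p = 3.08e-04). Per kb of gene length, KRT86 stood at 3.80 ± 0.96 CPM in control beside 1196 ± 295 CPM of KRT81. The share of KRT86 counts that came from KRT81 reads was not tested.

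KRT80 (ENSG00000167767, chr12:52168996-52192000, minus strand), a type II chain of many epithelia that is linked to desmosomes, was at 320.9, 279.5 and 322.1 CPM in control, 91.4, 69.4 and 68.1 CPM with shRNA#1 and 111.5, 82.1 and 66.2 CPM with shRNA#3. The shRNA#1 mean was 24.8% and the shRNA#3 mean 28.2% of control. Its pooled change was −1.92 on the log2 scale (SE 0.151, adjusted p = 1.59e-06).

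Basal and stress keratins had low levels in control. KRT15 (ENSG00000171346, chr17:41513743-41522529, minus strand, type I), a chain of basal epithelial cells, was at 26.2, 25.1 and 28.0 CPM in control, 1.12, 1.07 and 1.46 CPM with shRNA#1 and 1.00, 2.30 and 2.49 CPM with shRNA#3. The lowest control library stood far above the highest knockdown library, and the pooled change was −4.06 on the log2 scale (SE 0.248, adjusted p = 1.75e-07).

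KRT16 (ENSG00000186832, chr17:41609778-41615899, minus strand, type I), a keratin of wounded and hyperproliferative epithelium, had 17, 17 and 25 counts in control and 0 counts in all 6 knockdown libraries. Against a floor of 3 counts in each knockdown library it was at least 6.36-fold lower. Its adjusted p was 2.84e-04, and its fitted fold change depends on the prior count. KRT14 (ENSG00000186847, chr17:41582279-41586921, minus strand, type I) had 12, 12 and 10 counts in control, 0, 0 and 0 with shRNA#1 and 5, 2 and 0 with shRNA#3. That was at least 3.93-fold lower with shRNA#1 against the same floor, and KRT14 did not pass the filter for the test. KRT17 (ENSG00000128422, chr17:41619437-41624842, minus strand, type I), which stressed epithelia make beside KRT16, had between 9 and 14 counts in control and between 2 and 12 after knockdown. Its pooled change was −0.92 on the log2 scale (SE 0.502, adjusted p = 0.190), and counts this low limited its precision.

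KRT23 (ENSG00000108244, chr17:40922696-40937634, minus strand, type I), a further epithelial chain, had 16, 82 and 96 counts in control, 0, 2 and 2 with shRNA#1 and 1, 1 and 3 with shRNA#3. Control A lay well under the other two and still above every knockdown library. The control level was 42.4 times the knockdown level (95% counting interval 21.9 to 94.1), and the adjusted p was 3.45e-05. Intervals and floors of this kind cover counting error only and leave out the spread between replicate libraries. They also treat PCR copies of a molecule as independent, which they are not. Of the exonic bases of KRT23, 6.41% are also annotated to a second gene.

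KRT10 (ENSG00000186395, chr17:40818117-40822595, minus strand, type I), the partner of KRT1 in the upper layers of the skin, stood out by its even level. It was at 32.1, 31.1 and 29.2 CPM in control, 31.4, 35.6 and 36.8 CPM with shRNA#1 and 32.1, 29.3 and 29.3 CPM with shRNA#3. The groups overlapped, and its pooled change was 0.07 on the log2 scale (SE 0.100, adjusted p = 0.612). KRT1, its usual partner, did not reach the count minimum.

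KRT34 (ENSG00000131737, chr17:41377650-41382403, minus strand, type I), a hair keratin, had 10, 34 and 32 counts in control, 2, 6 and 19 with shRNA#1 and 16, 15 and 25 with shRNA#3. Its control libraries spread widely and enclosed all shRNA#3 libraries, and the pooled change was −0.84 on the log2 scale (SE 0.565, adjusted p = 0.286). With shRNA#1 alone it was −1.56 (SE 0.590, adjusted p = 0.0528). Whether KRT34 was called with shRNA#1 depended on the tool, the scaling and the filter. It passed both thresholds in the DESeq2 Wald test (−1.59, adjusted p = 0.0341), with library totals for scaling (−1.58, adjusted p = 0.0480) and with no filter on low counts (−1.55, adjusted p = 0.00308). It also passed them without control A (−1.95, adjusted p = 0.0139) and without shRNA#1 C (−2.62, adjusted p = 0.00994).

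Each hairpin was also compared with control on its own, against the same 3 control libraries, so the values are given side by side. With shRNA#1, 9 of 13 tested keratins were called lower and 0 higher, and with shRNA#3 likewise 9 lower and 0 higher. Without KRT16 and KRT23 it was 7 of 11 with either hairpin. Of all tested genes, 8.55% were called lower with shRNA#1 and 7.83% with shRNA#3. For KRT8 the log2 fold change was −1.19 with shRNA#1 and −1.17 with shRNA#3 (SE 0.114 for each), and for KRT18 −1.45 (SE 0.116) and −1.36 (SE 0.115). For KRT81 it was −5.26 (SE 0.427) and −4.91 (SE 0.420). For KRT80 it was −2.01 (SE 0.174) and −1.83 (SE 0.173). KRT17, which was not called, was at −0.51 (SE 0.506, adjusted p = 0.470) with shRNA#1 and −1.56 (SE 0.585, adjusted p = 0.0554) with shRNA#3. The shRNA#3 value of KRT17 passed both thresholds without shRNA#3 B (−2.12, adjusted p = 0.0453) and without shRNA#1 C (−1.56, adjusted p = 0.0409).

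Tested directly, shRNA#3 against shRNA#1 gave 0 keratin calls of 13 in edgeR and 0 in DESeq2, beside 3.93% of all tested genes called in either direction. At an unadjusted p under 0.05 there were 2 keratins of 13, KRT19 and KRT15. The share of all genes at that threshold is not given here. Even at an adjusted p under 0.05 with no fold threshold, 1857 of 15975 tested genes differed, so the 2 are not read as an excess. KRT19 was lower with shRNA#3 by a log2 difference of −0.60 (SE 0.169, adjusted p = 0.0344), less than 2-fold. Its adjusted p was 0.158 without shRNA#3 B, and over the alternatives it ran from 1.79e-05 to 1. KRT15 was higher with shRNA#3, at 0.68 (SE 0.287, adjusted p = 0.159). The KRT34 libraries of the hairpins almost met in CPM, at 0.815 in shRNA#1 C and 0.823 in shRNA#3 B, and their raw counts overlapped. The KRT34 difference was 1.23 (SE 0.609, adjusted p = 0.237).

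**Figure D2:**
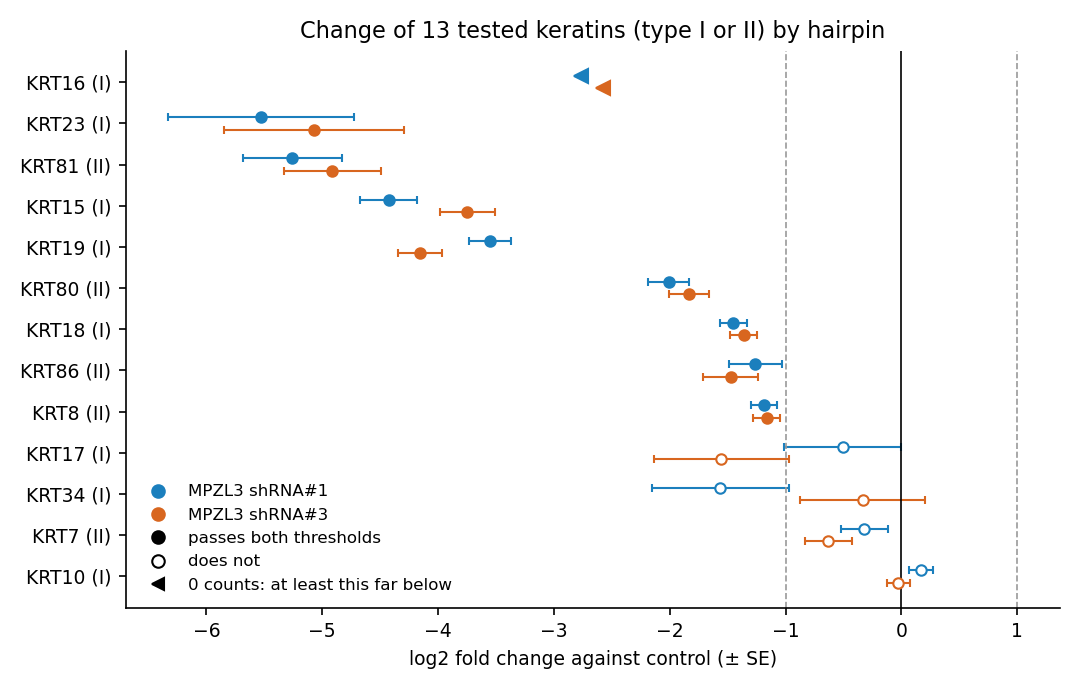
Log2 fold change against control (x axis, bars show SE) of the 13 tested keratins for MPZL3 shRNA#1 and shRNA#3, with filled points for those passing both thresholds and dashed lines at a 2-fold change. Filled circles run from KRT23 at −5.53 with shRNA#1 to KRT8 at −1.17 with shRNA#3, the triangles of KRT16 mark only bounds of at least 6.80-fold and 5.98-fold lower, since its knockdown libraries held 0 counts, and KRT17, KRT34, KRT7 and KRT10 are open for both hairpins.

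The falls were unequal in both types, so the make-up of the keratin mRNA changed. Levels of different genes are compared here as CPM per kb of the deposited gene length, which counts all exonic bases of a gene. In control, type I keratins summed to 1360 ± 188 CPM per kb and consisted almost wholly of KRT18 (50.2% ± 5.2) and KRT19 (48.3% ± 5.4). After knockdown the type I sum was 320.3 ± 33.2 with shRNA#1 and 315.3 ± 22.7 with shRNA#3. KRT18 then made up 77.0% ± 2.8 with shRNA#1 and 83.4% ± 0.72 with shRNA#3, and KRT19 17.7% ± 2.1 and 11.8% ± 0.91. KRT10, at 1.08% ± 0.20 of the type I sum in control, was at 5.11% ± 0.62 and 4.53% ± 0.30 after knockdown, with an even level of its own.

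Type II keratins summed to 2808 ± 508 CPM per kb in control, 1028 ± 174 with shRNA#1 and 914.2 ± 72.7 with shRNA#3. KRT81 was the leading type II chain of the control cells on this scale, at 42.2% ± 3.8, followed by KRT7 at 29.7% ± 1.8 and KRT8 at 25.4% ± 4.3. After knockdown KRT7 led at 64.6% ± 5.5 with shRNA#1 and 58.9% ± 5.1 with shRNA#3, KRT8 followed at 30.5% ± 6.2 and 34.4% ± 4.6, and KRT81 held 2.96% ± 1.71 and 4.34% ± 1.00. In control the KRT7 and KRT8 shares differed by no more than the SD of the KRT8 share. The order depends on the gene length used: per kb of the longest principal transcript in GENCODE 29, KRT8 led the control cells at 41.7% ± 5.2, KRT7 held 35.2% ± 3.1 and KRT81 21.5% ± 2.8.

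**Figure D3:**
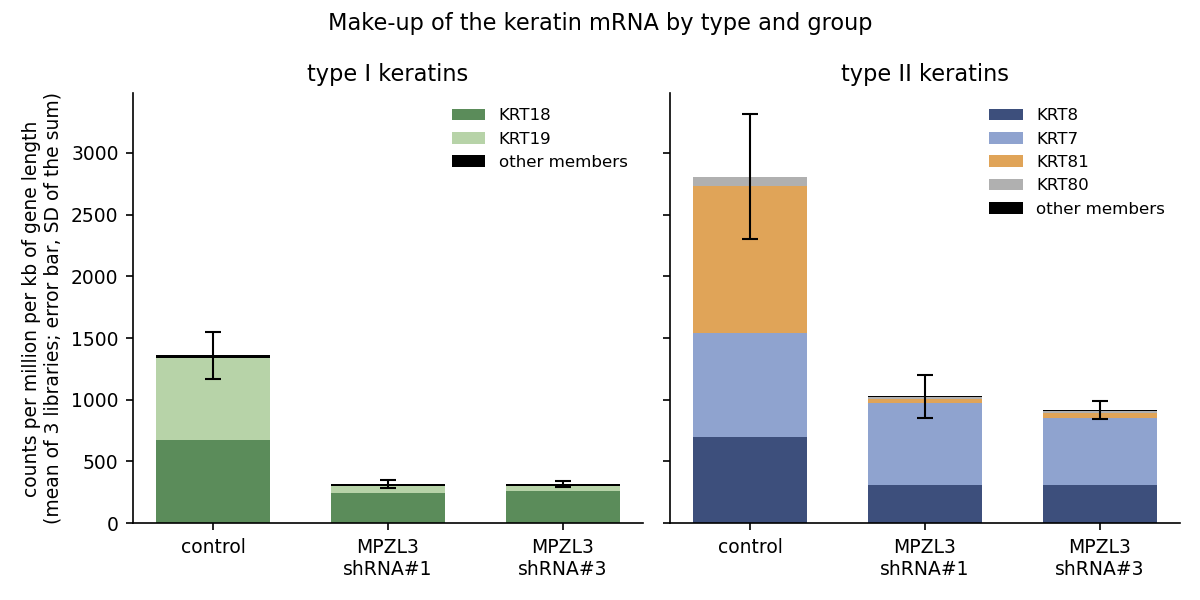
Mean CPM per kb of deposited gene length (y axis) of type I and type II keratins in each group, stacked by gene, with the SD of the sum over 3 libraries as error bar. In control the type I bar splits almost evenly between KRT18 and KRT19 and KRT81 is the largest part of the type II bar, and after knockdown KRT18 and KRT7 are the largest parts.

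Because the filament needs both types in equal number, the ratio of type II to type I mRNA was followed in each library as log2 of counts plus 0.5 over gene length. Of 12 partner pairs listed, 4 had both members at the count minimum. These ratios are descriptions without a test. KRT8 to KRT18, the core pair, was at 0.0709, 0.0089 and 0.0704 in control, 0.324, 0.359 and 0.270 with shRNA#1 and 0.291, 0.256 and 0.198 with shRNA#3. The knockdown libraries lay above the control libraries by 0.23 on average, so this ratio moved far less than either gene's level.

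KRT7 to KRT19 moved most. It was at 0.361, 0.324 and 0.333 in control, where KRT7 and KRT19 differed between libraries but their ratio did not. It was at 3.28, 3.62 and 3.72 with shRNA#1 and 3.45, 4.21 and 3.92 with shRNA#3, a mean shift of 3.36. KRT8 to KRT19 went from 0.11 ± 0.32 in control to 2.44 ± 0.21 with shRNA#1 and 3.08 ± 0.14 with shRNA#3, and the hairpins did not overlap. KRT7 to KRT18 went from 0.28 ± 0.30 to 1.42 ± 0.41 and 1.03 ± 0.28.

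Over all described members, the log2 ratio of the type II sum to the type I sum was 1.04 ± 0.08 in control, 1.67 ± 0.24 with shRNA#1 and 1.54 ± 0.17 with shRNA#3. Each of the 4 pairs holds at least 1 gene called lower, so these shifts are not independent of those calls. The shifts do not depend on gene length for single pairs, but the levels do. With the principal transcript length, control stood at 0.70 for KRT8 to KRT18 and 1.05 for KRT8 to KRT19, and the shift of the sums was 0.87 in place of 0.57.

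**Figure D4:**
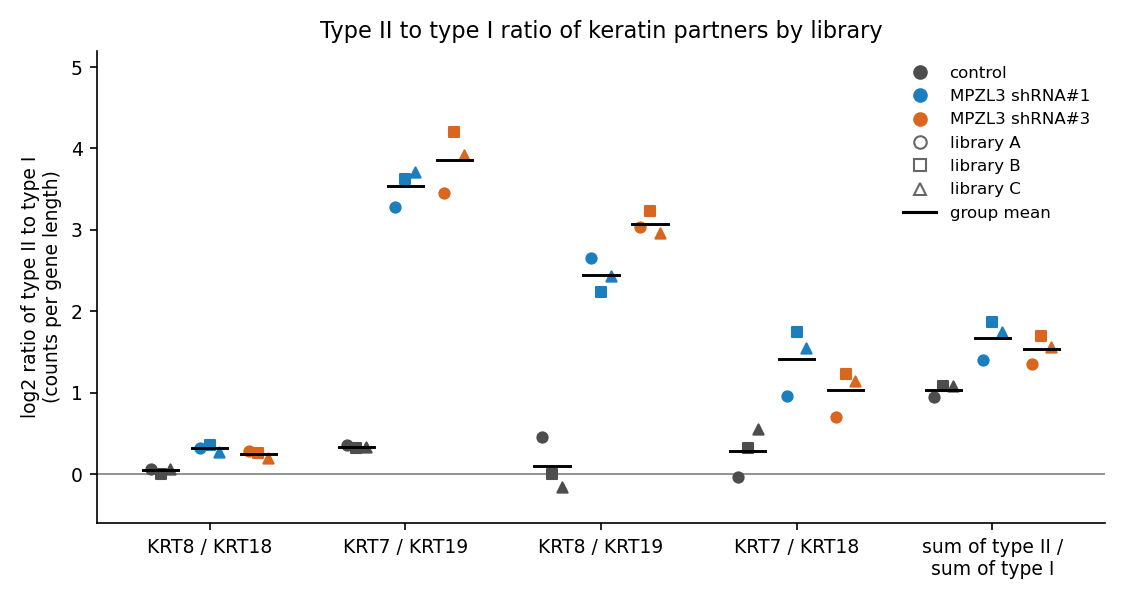
Log2 ratio of type II to type I counts per gene length (y axis) for 4 partner pairs and for the sums, 1 point per library with the group mean as a bar. KRT8 to KRT18 stays between 0.0089 and 0.359 in all 9 libraries, whereas KRT7 to KRT19 goes from at most 0.361 in control to at least 3.28 after knockdown.

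The genes around the keratin clusters were read beside them. On chromosome 12, 39 tested genes other than KRT-named ones start within 1 Mb of the cluster, and their median pooled log2 fold change was 0.40, with 8 called higher (20.5%) and 1 lower (2.56%). On chromosome 17 the 52 such genes had a median of −0.05, with 1 called higher (1.92%) and 4 lower (7.69%). Over all tested genes the shares were 7.26% higher and 7.4% lower, so the lower calls around the chromosome 17 cluster were near that background. Within the chromosome 17 cluster KRT10 lay −705.5 kb from KRT19 with no change called, while KRT15 and KRT19, with KRT15 starting at −9.87 kb from KRT19, changed by −4.06 and −3.82 on the log2 scale. KRT8 and KRT18 on chromosome 12 are adjacent and changed by −1.18 and −1.41, and KRT81, between KRT7 and KRT8, changed by −5.08.

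**Figure D5:**
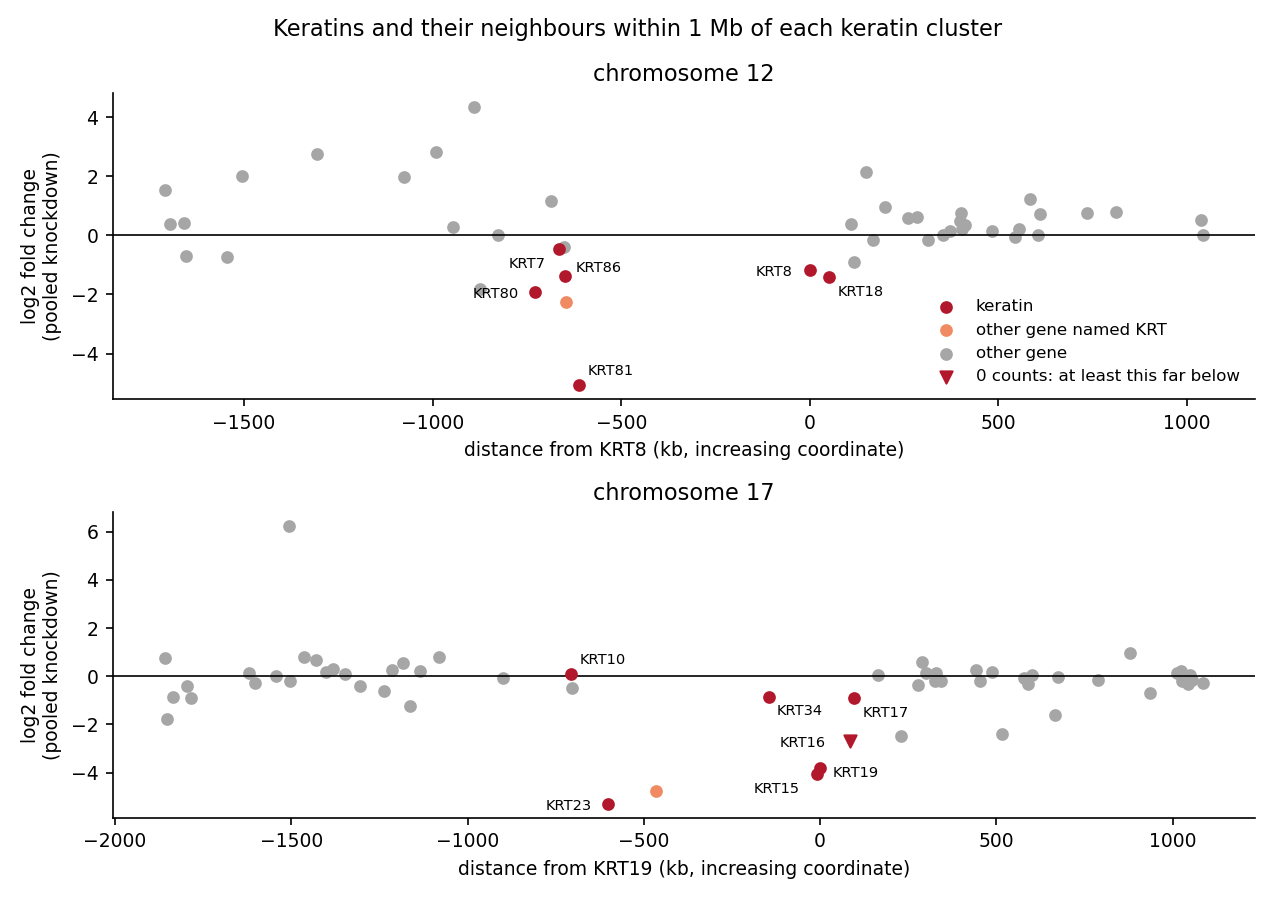
Pooled log2 fold change (y axis) of tested genes in and within 1 Mb of the keratin clusters, by distance in kb from KRT8 on chromosome 12 and from KRT19 on chromosome 17. The labelled keratins lie below 0 apart from KRT10 at 0.07, the triangle of KRT16 marks a bound of at least 6.36-fold lower, and most grey points of other genes lie near 0 or, on chromosome 12, above it.

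Only 3 of the 14 described keratins, KRT8, KRT10 and KRT34, matched an entry in the RefSeq promoter table, which gives 300 bases around a start site on GRCh38.p14. The KRT8 entry is for an alternative start inside the gene, and the start of the KRT34 entry also lies inside the gene span given above. The TATA box motif TATAAA, searched on both strands like the other motifs, none of which contains another, was found in KRT10, 29 bases before the start, and in KRT34, 31 bases before the start of its entry. The KRT34 match also lies inside the gene span. Of the 38 promoter entries of 34 keratin genes, 55.3% held TATAAA, against 11.5% of all 35116 promoters. The E-box CACCTG was in 21.1% of keratin entries and 20.6% of all, the AP-1 motif TGANTCA in 0 and 7.71%, and the grainyhead-like motif AACCGGTT in 0 and 0.134%. None of these 3 motifs was found in the windows of KRT8, KRT10 or KRT34.

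Genes that work with keratins or are known to govern epithelial genes were read from lists, with the pooled comparison and its background of 7.4% lower and 7.26% higher. Of 13 tested proteins that anchor or link keratin filaments at desmosomes and hemidesmosomes, 7 were called lower and 0 higher (median log2 fold change −1.12). The largest falls were those of EPPK1, which encodes the keratin-binding epiplakin (−4.58, SE 0.200, adjusted p = 9.63e-09), ITGB4, the hemidesmosome integrin (−3.89, SE 0.168, adjusted p = 8.74e-09), and PPL, which encodes periplakin (−2.84, SE 0.205, adjusted p = 7.22e-07). ITGB4 went from 707.7 ± 123 CPM in control to 47.7 ± 13.9 with shRNA#1 and 47.7 ± 7.5 with shRNA#3.

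Of 11 tested epithelial transcription factors, 9 were called lower and 0 higher, with a median of −4.60. OVOL1, GRHL2, EHF, OVOL2 and GRHL3 had at most 0.46 CPM in any knockdown library. They could pass the filter on low counts only through control and be called only lower, so the count and the median are partly fixed by the filter. The others called lower were ELF3 (−6.08), GRHL1 (−4.3), TFAP2C (−3.17) and KLF4 (−2.92). OVOL1 was at 13.1 ± 2.1 CPM in control and at 0 in 5 of the 6 knockdown libraries. GRHL2, a grainyhead-like factor, went from 111.8 ± 13.6 CPM to 0 in the 3 shRNA#1 libraries and 0.25 ± 0.19 with shRNA#3, and EHF went from 56.8 ± 6.1 CPM to 0.113 ± 0.100 and 0.015 ± 0.027. Of 6 factors that repress epithelial genes in EMT, 5 were called higher and 0 lower, with a median of 2.59. ZEB2 went from 2.69 ± 0.61 CPM to 30.7 ± 2.9 and 29.5 ± 1.7, ZEB1 from 3.92 ± 0.38 to 43.6 ± 4.3 and 39.5 ± 3.8, and SNAI1 from 3.17 ± 0.55 to 23.1 ± 8.7 and 32.0 ± 10.3.

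Of 15 genes of squamous differentiation, 9 were at 0 in all libraries, and of the 4 tested 3 were called lower. IVL, which encodes the cornified envelope protein involucrin, was at 3.71 ± 1.49 CPM in control and at 0 in all 6 knockdown libraries. It therefore passed the filter only through control and could be called only lower. CNFN was at 1.34 ± 0.50, 0.358 ± 0.095 and 0.417 ± 0.279 CPM in control, shRNA#1 and shRNA#3. It too could pass the filter only through control and be called only lower. SFN, which had no such limit, was at 296.3 ± 38.6, 109.2 ± 26.7 and 79.9 ± 14.9 CPM in the same order. Of 10 tested intermediate filament genes other than keratins, 4 were called higher and 0 lower, with a median of 0.84. VIM, the vimentin of mesenchymal cells, went from 203.1 ± 19.0 CPM to 987.1 ± 59.2 and 892.3 ± 66.6 (log2 fold change 2.21, SE 0.110, adjusted p = 2.76e-08). NES, which encodes nestin, went from 0.81 ± 0.23 CPM to 1.76 ± 0.48 and 6.96 ± 1.29, and IFFO1 from 0.58 ± 0.22 to 1.64 ± 0.87 and 3.45 ± 1.99. IFFO1 was too low in control to pass the filter without the knockdown libraries, so its higher call is partly fixed by the filter.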

How the data were processed

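Poly(A) RNA of OVCA433 was made into non-directional libraries, 3 for each of the 3 groups, and groups were taken from the sample titles. Per the labels' processing notes, reads were aligned to hg38 with HISAT2 2.0.5 and counted per gene with featureCounts 1.5.0-p3. The authors deposited raw read counts for 58676 genes with no normalization, and the deposited gene length was used for levels per kb. From these, edgeR 4.0.16 in R 4.3.3 was run on the whole table: filterByExpr (15975 genes left), TMM factors, glmQLFit and glmQLFTest, with Benjamini-Hochberg adjustment over all tested genes and calls at an adjusted p under 0.05 and a log2 change of at least 1 in either direction. Both hairpins formed 1 arm of 6 libraries, the study's grouping, in the pooled comparison. Each hairpin against control and shRNA#3 against shRNA#1 came from a 3-group model of all 9 libraries. Each SE is the fold change over the root of its F statistic.

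The scripts were tested on simulated data. Library totals were 16850854 to 23890191 counts. Exon overlaps, principal transcripts and coding sequences came from GENCODE 29 on GRCh38, where 13 of the 14 described keratins have the same start and end. Promoter windows were credited to RefSeq. The coding stretch that tells KRT81 from KRT86 is not reported here. Described keratins were those with at least 10 counts in at least 3 libraries. Values in every library were given for those called in any comparison or with a mean of at least 10 CPM, and of each other list at most 3 called genes with the largest pooled change were named. KRT14, KRT17 and KRT34, outside the rule for values in every library, were given by counts because these are low. The members and lists were chosen with earlier results of these data known. Alternatives were another filter, DESeq2 size factors, library totals, the DESeq2 1.42.0 Wald test, each library left out, the letter as a block, protein-coding genes alone, other thresholds, near-identical copies summed, and other pseudocounts or lengths for ratios. The principal transcript length was added after seeing the data.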

Additional observations from a re-analysis of the deposited data

Results flagged for a closer look

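The fall of KRT19 differed between the hairpins in size at an adjusted p under 0.05, though by less than 2-fold. At that threshold, with no fold threshold, KRT19 was the 1 keratin of 13 that differed, beside 1857 of 15975 tested genes. A difference of this kind was therefore not particular to keratins. The log2 difference of shRNA#3 from shRNA#1 was −0.60 (SE 0.169, adjusted p = 0.0344, edgeR quasi-likelihood test), with KRT19 lower in all 3 shRNA#3 libraries than in any shRNA#1 library. The mean was 132.0 ± 13.1 CPM with shRNA#1 and 87.0 ± 12.7 CPM with shRNA#3, beside 1550 ± 379 CPM in control. Over the 21 alternatives the difference ran from −0.68 to −0.49, and its adjusted p stayed under 0.05 in 15 and ran from 1.79e-05 to 1. The adjusted p was above 0.05 without control B (0.0511), without shRNA#1 B (0.0972) or C (0.113), and without shRNA#3 B (0.158) or C (0.0566), and it was 1 with the 2-fold threshold inside the test.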

How the results depend on the processing

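The number of keratins called lower was 9 against control in the pooled comparison and with each hairpin, and stayed within 1.5 times of that in every alternative run. Without 1 library it ran from 9 to 10 pooled, 9 to 11 with shRNA#1 and 9 to 10 with shRNA#3, where KRT14, KRT17 or KRT34 were added. With shRNA#1 it was 10 in the DESeq2 Wald test and with library totals (KRT34 added) and 11 with no filter (KRT14 and KRT34 added). In all 3 comparisons with control it was 7 with the 2-fold threshold inside the test, which KRT8 and KRT86 did not pass, and 8 at a mean of at least 1 CPM, where KRT16 was not tested. shRNA#3 against shRNA#1 gave 0 keratins, 1 (KRT19) with no fold threshold, and 0 to 1 without 1 library, where KRT14 was called without shRNA#3 C.

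The letter does not mark a stated batch. Deviations of same-letter libraries of different groups correlated at 0.0373 to 0.361 (9 pairs), those of other letters at −0.322 to 0.132 (18 pairs), and in 15 of 18 cases a library correlated best with its own letter. With the letter as a replicate block, 9 keratins were called pooled, 10 with shRNA#1 (KRT34 added) and 10 with shRNA#3 (KRT17 added). KRT7 stayed under 2-fold, with an adjusted p of 0.00923 pooled, 0.00252 with shRNA#1 and 1.01e-05 with shRNA#3 under the block.

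Shifts of pair ratios from control kept their direction. Without 1 library the control level ran from −0.073 to 0.235 for KRT8 to KRT19, a change of sign, and from 0.148 to 0.441 for KRT7 to KRT18. With no division by length the control level was 1.15 for KRT8 to KRT18, 1.15 for KRT7 to KRT19, 1.66 for KRT8 to KRT19, 0.63 for KRT7 to KRT18 and 1.52 for the sums, and the shift of the sums was 0.78. With the principal transcript length the levels of the first 3 were 0.70, 0.81 and 1.05, and the shift of the sums was 0.87. Sign changes were seen for values near 0, given with their other extreme without 1 library: for KRT10 with shRNA#3 (0.0043 without control A, −0.074 at the lowest), and between hairpins for KRT16 (−0.011 with the block), KRT23 (−0.089 and −0.11 without shRNA#1 A or shRNA#3 C, highest 0.89), KRT18 (−0.0026 without shRNA#1 B, highest 0.18), KRT80 (−0.042 without shRNA#3 A, highest 0.35), KRT8 (−0.051 and −0.020 without shRNA#1 B or shRNA#3 A, highest 0.085) and KRT81 (−0.039 without shRNA#1 A, highest 0.89). The cause was not tested. Over all genes, 2342, 2605, 2443 and 628 were called in the pooled, shRNA#1, shRNA#3 and between-hairpin comparisons, 5269, 6032, 5536 and 1857 with no fold threshold and 1317, 1539, 1481 and 206 with it inside the test. Low counts limit KRT14, KRT16, KRT17, KRT23 and KRT34.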

Other observations

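Keratin pseudogenes, which the rule on members left out, were also counted in these libraries. KRT16P6 (chr17:16817983-16822579), an unprocessed copy of KRT16, had 51, 37 and 74 counts in control (adjusted p = 5.92e-05, edgeR). It had 0 in all 6 knockdown libraries, as KRT16 itself did. Like KRT16, it could pass the filter only through control and be called only lower. KRT87P (chr12:52250466-52258867), a relic of a hair keratin beside KRT81 and KRT86, went from 22.3 ± 2.7 CPM in control to 5.15 ± 1.22 with shRNA#1 and 4.21 ± 0.75 with shRNA#3, a pooled log2 fold change of −2.25 (SE 0.174, adjusted p = 1.30e-06). KRT8P12, a transcribed copy of KRT8 on chromosome 3, was at 10.0 ± 0.9, 8.72 ± 1.35 and 12.1 ± 2.0 CPM, with a pooled log2 fold change of 0.05 (adjusted p = 0.859), while KRT8 fell by 1.18. KRT8P3, another processed copy of KRT8, was called lower (pooled log2 fold change −1.93, adjusted p = 0.00675, edgeR). It was at 1.54 ± 0.06 CPM in control, 0.433 ± 0.336 with shRNA#1 and 0.365 ± 0.157 with shRNA#3. With knockdown counts this low, KRT8P3 could pass the filter only through control and be called only lower. The other 3 tested copies, KRT8P33, KRT8P39 and KRT8P46, were not called (−0.21, −0.58 and 0.11). These genes were chosen after their values were seen.

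KRT13 and KRT83, both under the count minimum, had 7, 22 and 13 and 2, 9 and 12 counts in control and between 0 and 4 counts in any knockdown library. KRT5 had 10 counts in control A, 1 in control B and 0 in the other 7 libraries.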
